A study of Mus musculus with 8 samples.

Results

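The EGF receptor family and its ligands were followed in mouse liver through 10 genes: the receptor genes Egfr, Erbb2 and Erbb3 and the ligand genes Areg, Ereg, Hbegf, Tgfa, Egf, Btc and Epgn. They were taken by symbol from the deposited normalised count table, which holds 35204 gene symbols and all 10 of these. Poly-A RNA from pieces of liver was sequenced in 8 libraries of C57BL/6J mice of wild type genotype. The 3 control libraries came from untreated mice. The 5 others, called TAZ-CCl4 libraries here, came from mice given a TAZ S89A construct under the EF1a promoter by HTVI, together with carbon tetrachloride (CCl4) in 30 doses, 3 a week over 10 weeks. HTVI is understood here as hydrodynamic tail vein injection, a method that brings plasmids chiefly into hepatocytes, and EF1a is a promoter active in most cell types. TAZ, the product of Wwtr1, is a coactivator of TEAD transcription factors, and S89A removes a site at which the Hippo pathway restrains it. CCl4 is a liver toxin. The controls received neither agent, so effects of TAZ and of CCl4 cannot be told apart. The labels give no age or sex and do not say whether a piece held tumour.

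EGFR, ERBB2 and ERBB3 are receptor tyrosine kinases that signal as pairs. EGFR binds the 7 ligands listed, ERBB2 has no known ligand of its own and serves as the preferred partner, and ERBB3 binds neuregulins and has a weak kinase. The ligands are made as membrane-bound precursors and are released by proteases of the ADAM family. In adult rodent liver EGFR is abundant on hepatocytes, and its ligands are known for their part in regeneration.

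The values are normalised counts, that is, the authors' gene counts divided by a scaling factor per library. Control libraries summed to between 29.8 and 35.1 M and TAZ-CCl4 libraries to between 12.4 and 14.2 M, so the choice of scaling matters: over all tested genes the median log2 difference (TAZ-CCl4 minus control, the log2 fold change) was 0.03 as deposited and 1.26 when libraries were set to equal totals. Where no scaling is named, a direction is that of the deposited values. Groups were compared with limma on log2(value + 1), which understates the change of low genes, over 14171 genes with a mean of at least 10. Calls were made at an adjusted p under 0.05. Wwtr1, the gene of the introduced factor, whose transcripts cannot be told from those of the construct here, stood at 367 ± 91.9 in the controls (SD, n = 3) and 5733 ± 1873 in the TAZ-CCl4 libraries (SD, n = 5). Of 7 hepatocyte markers measured, 6 were called lower as deposited and 1 at equal totals, where 29.8% and 6.39% of all tested genes were. The summed values of these markers, 1.89 to 2.34 M (controls) and 0.726 to 1.04 M (TAZ-CCl4), place both groups as liver. The libraries of each group belong to their own sequencing project by the labels, so project and group cannot be told apart, and which of 2 named RNA kits served which library is not stated. The labels do not say that each library came from its own mouse, so p-values cover the spread between samples only, and that spread may be partly technical.

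The results turn on receptor genes that moved in opposite directions and on a ligand gene at the edge of detection, and the RefSeq sequence just before the start of 3 of them is shown for that reason (250 bases, build GRCm38.p6, plus strand, 5′ to 3′). Capitals mark GGAATG, the core of the motif bound by TEAD factors. The windows are chr11:16751953-16752202 for Egfr, chr11:98412234-98412483 for Erbb2 and chr5:91139349-91139598 for Areg.
Egfr: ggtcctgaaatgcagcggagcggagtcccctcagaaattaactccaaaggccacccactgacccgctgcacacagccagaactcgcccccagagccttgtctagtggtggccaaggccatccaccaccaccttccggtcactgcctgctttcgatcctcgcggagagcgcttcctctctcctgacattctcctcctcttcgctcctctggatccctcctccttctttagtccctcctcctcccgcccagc
Erbb2: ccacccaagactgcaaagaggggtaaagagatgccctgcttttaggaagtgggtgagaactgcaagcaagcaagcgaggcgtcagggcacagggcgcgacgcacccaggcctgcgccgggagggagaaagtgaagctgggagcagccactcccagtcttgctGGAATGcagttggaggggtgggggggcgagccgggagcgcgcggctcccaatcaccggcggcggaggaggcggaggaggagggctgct
Areg: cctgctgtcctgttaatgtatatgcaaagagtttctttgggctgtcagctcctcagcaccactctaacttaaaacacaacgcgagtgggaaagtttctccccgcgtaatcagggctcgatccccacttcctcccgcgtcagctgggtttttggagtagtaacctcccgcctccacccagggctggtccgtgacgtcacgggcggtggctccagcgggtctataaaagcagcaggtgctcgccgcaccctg
The Erbb2 window held 1 match, which began 88 bases before the RefSeq start, and the Egfr and Areg windows held none. The Erbb2 window ends at 98412483, past the GENCODE start of the gene at 98412470, so its last bases lie within the GENCODE gene. GGAATG was searched on both strands (CATTCC on the other). It was present in 1 of 8 such windows of the 7 members with an entry in the table, 1 window each and 2 for Egf, and in 12.6% of 32851 windows of all genes. The AP-1 motif TGANTCA, which reads the same on both strands and did not overlap the TEAD match, was in 0 of the 8 windows and in 6.75% of all windows. A match is a description of letters and does not show binding, and a window without one says nothing about the factor. Erbb3, Ereg and Hbegf had no entry.

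Receptor transcripts changed in opposite directions. Egfr and Erbb3 were the abundant receptor genes in control liver and were lower in the TAZ-CCl4 libraries, while Erbb2, low in control liver, was higher. In bulk tissue, fewer cells of a type and less RNA per cell cannot be told apart.

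Egfr (GENCODE M21, mm10 chromosome 11, 16752203 to 16918158) stood at 17764, 12973 and 21100.1 normalised counts in control replicates 1 to 3. It stood at 4932, 3788, 5531, 2042 and 4693 in TAZ-CCl4 replicates 1 to 5. Every TAZ-CCl4 value lay below every control value, and the lowest control was 2.35 times the highest TAZ-CCl4 library. The means were 17279 ± 4085 (SD, n = 3) and 4197 ± 1358 (SD, n = 5). The log2 difference was -2.09 ± 0.31 (SE; limma, adjusted p = 1.92e-04). At equal totals the difference was -0.84 ± 0.28 (limma, adjusted p = 0.0169), and after quantile normalisation it was -0.96 ± 0.30 (limma, adjusted p = 0.0191), so the gene remained called as lower. TAZ-CCl4 replicate 4 had the lowest Egfr value of all libraries.

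Erbb2 (chromosome 11, 98412470 to 98437716), on the same chromosome as Egfr, stood at 16.3, 25.2 and 26.1 normalised counts in the controls. It stood at 317, 279, 141, 319.6 and 221 in TAZ-CCl4 replicates 1 to 5. The groups did not overlap, and the lowest TAZ-CCl4 library was 5.42 times the highest control. The means were 22.5 ± 5.41 (SD, n = 3) and 256 ± 75.3 (SD, n = 5). The log2 difference was 3.42 ± 0.30 (SE; limma, adjusted p = 7.00e-06). It was 4.62 ± 0.34 at equal totals and 2.64 ± 0.34 after quantile normalisation, called under both. Its 3′ end overlaps the oppositely directed Mien1 by 9 bases.

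Erbb3 (chromosome 10, 128567523 to 128589652), whose product binds neuregulins, stood at 3529, 3773 and 3651 in the controls. It stood at 1111, 1801, 1817, 1178 and 1679.6 in the TAZ-CCl4 libraries. The controls lay within a narrow band and above all TAZ-CCl4 values. The means were 3651 ± 122 (SD, n = 3) and 1517 ± 345 (SD, n = 5). The log2 difference was -1.30 ± 0.19 (SE; limma, adjusted p = 1.66e-04). This difference depended on the scaling: at equal totals it was -0.05 ± 0.17 and missed the threshold (limma, adjusted p = 0.808), and after quantile normalisation it was -0.66 ± 0.20 and passed (limma, adjusted p = 0.0161).

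**Figure D1:**
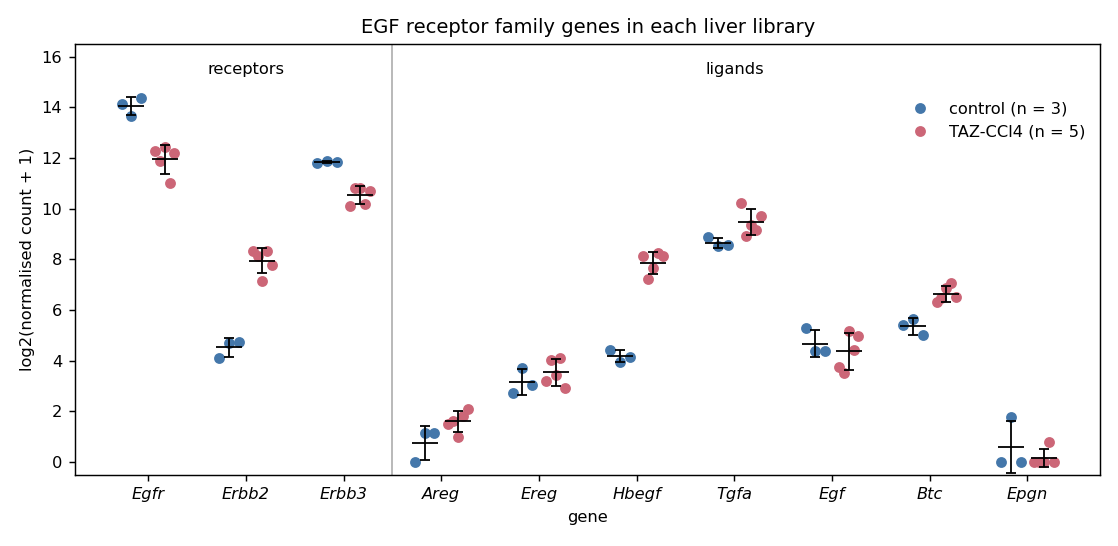
Values of the 10 genes in each library, as log2(normalised count + 1) on the vertical axis, with points for the 3 control and 5 TAZ-CCl4 libraries and bars for the mean ± SD of the log2 values. Egfr and Erbb3 sit lower and Erbb2, Hbegf, Tgfa and Btc higher in the TAZ-CCl4 libraries at the deposited scaling, while Areg and Epgn lie near 0 in both groups.

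Among the ligand genes, Hbegf, Tgfa and Btc were higher in the TAZ-CCl4 libraries, with fitted folds on the log2(value + 1) scale of 12.9 for Hbegf, 2.45 for Btc and 1.76 for Tgfa. Ereg and Egf did not pass the test, and Areg and Epgn were too low to be tested.

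Hbegf (chromosome 18, 36504927 to 36515805) encodes heparin-binding EGF-like growth factor, a ligand of EGFR and of ERBB4. It stood at 20.8, 14.5 and 16.8 normalised counts in the controls and at 281, 147, 201, 300.3 and 276 in TAZ-CCl4 replicates 1 to 5. The groups did not overlap, the lowest TAZ-CCl4 library being 7.08 times the highest control. The means were 17.3 ± 3.18 (SD, n = 3) and 241 ± 64.8 (SD, n = 5). The log2 difference was 3.69 ± 0.28 (SE; limma, adjusted p = 2.67e-06). It was 4.88 ± 0.29 at equal totals and 2.92 ± 0.30 after quantile normalisation, called under both.

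Tgfa (chromosome 6, 86195223 to 86275719) encodes transforming growth factor alpha, known as an autocrine growth factor of rat hepatocytes. Its values were 472, 368 and 378 in the controls and 1185, 479, 662, 565 and 845 in the TAZ-CCl4 libraries. The groups touched without overlapping, since the lowest TAZ-CCl4 library, replicate 2, was 1.02 times the highest control. The log2 fold change was 0.81 ± 0.26 (SE; limma, adjusted p = 0.0208). Leaving out control replicate 2 ended the call, at 0.75 (limma, adjusted p = 0.0734), as did leaving out control replicate 3, at 0.77 (limma, adjusted p = 0.0695). The difference was 2.06 ± 0.26 at equal totals and 0.88 ± 0.28 after quantile normalisation, called under both.

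Btc (chromosome 5, 91357261 to 91402994) encodes betacellulin, which binds EGFR and ERBB4. Its values were 41.4, 49.3 and 31.1 in the controls and 77.8, 87.6, 115, 135 and 91.6 in the TAZ-CCl4 libraries, with no overlap. The log2 fold change was 1.30 ± 0.26 (SE; limma, adjusted p = 0.00156) and 2.52 ± 0.28 at equal totals. After quantile normalisation it was 0.36 ± 0.25 and missed the threshold (limma, adjusted p = 0.235).

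Ereg (chromosome 5, 91074622 to 91093646) encodes epiregulin, a broad-acting ligand. Its values were 5.66, 12.1 and 7.19 in the controls and 8.15, 15.5, 9.83, 16.4 and 6.55 in the TAZ-CCl4 libraries, so the ranges overlapped. Its mean over the 8 libraries, 10.2, put it just above the filter. The log2 fold change was 0.38 ± 0.48 (SE; limma, adjusted p = 0.501), 1.48 ± 0.50 and called at equal totals (limma, adjusted p = 0.0167), and -0.89 ± 0.49 and not called after quantile normalisation (limma, adjusted p = 0.143).

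Egf (chromosome 3, 129677565 to 129755316) encodes epidermal growth factor itself. It stood at 37.8, 19.9 and 19.8 in the controls, against 12.5, 10.6, 34.7, 20.8 and 30.5 in the TAZ-CCl4 libraries, again with overlap. The log2 fold change was -0.31 ± 0.47 (SE; limma, adjusted p = 0.585). It was 0.88 ± 0.45 at equal totals, not called, and -1.38 ± 0.46 after quantile normalisation (limma, adjusted p = 0.0262), so no direction held across scalings.

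Areg (chromosome 5, 91139599 to 91148432) encodes amphiregulin and is known from human mammary epithelial cells as a gene induced by YAP, the paralog of TAZ. Its values were 0, 1.21 and 1.20 in the controls and 1.81, 2.07, 0.977, 2.55 and 3.28 in the TAZ-CCl4 libraries. Divided by the most frequent low value of each library, taken as the worth of about 1 read, these are about 0, 1.0 and 1.0 reads and about 2.0, 2.0, 0.99, 7.0 and 3.0 reads. Transcripts were thus near the detection limit in every library, and the ranges overlapped. With no filter on low values, Areg had a log2 difference of 0.84 and missed the threshold (limma, adjusted p = 0.150).

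Epgn (chromosome 5, 91027464 to 91035215) encodes epigen. It was listed at 0 in 2 controls and 4 TAZ-CCl4 libraries, and at 2.42 in control replicate 2 and 0.729 in TAZ-CCl4 replicate 4. It was not detectable as differing at this depth (limma with no filter, adjusted p = 0.465).

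Counted over the family, 8 of the 10 genes passed the filter on low values. Of these, 4 were called higher, 2 lower and 2 did not pass, against 62.3% of all tested genes called, 32.4% higher and 29.8% lower. For 6 of the 8 the groups did not overlap, 4 higher and 2 lower, against 60.1% of all tested genes (30.7% higher, 29.4% lower). The number of members called is thus close to the background. Egfr lay at the 5.48th percentile of the log2 fold changes of all tested genes, Erbb3 at 11.9, Tgfa at 72.0, Btc at 78.6, Erbb2 at 94.5 and Hbegf at 95.8. At equal totals 5 members were higher and 1 lower, where 76.3% and 6.39% of all genes were (82.7% together). After quantile normalisation 3 were higher and 3 lower, where 27.8% and 29.8% of all genes were (57.6% together). Egfr, Erbb2, Hbegf and Tgfa kept direction and call under each of the 5 scalings.

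**Figure D2:**
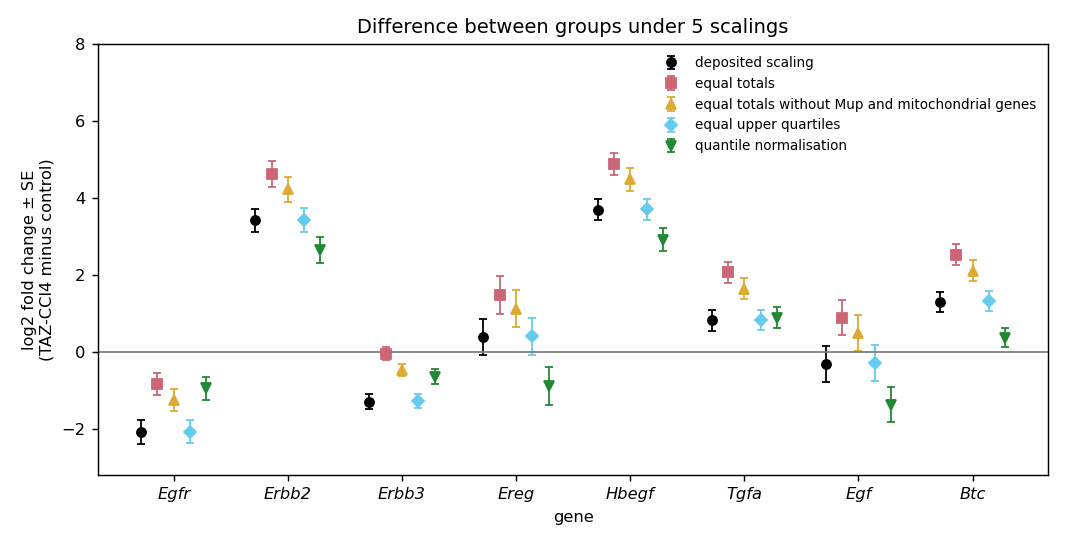
The log2 fold change ± SE (limma) of the 8 tested genes, TAZ-CCl4 minus control, at the deposited scaling and 4 others. Erbb2 and Hbegf lie above 2.6 and Egfr below -0.8 under each scaling, Erbb3 reaches -0.05 at equal totals, and Ereg and Egf change sign between scalings.

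Relative to Egfr in the same library, a measure in which the scaling factor cancels apart from the pseudocount, the ligand genes and Erbb2 shifted upward. For each of the 7 other tested members the log2 ratio to Egfr was tested by exact permutation, two-sided, with all 56 assignments of 3 and 5 labels, which allows no p below 0.0357. The Erbb2 ratio was 5.51 higher in the TAZ-CCl4 libraries on the log2 scale, at -9.52 ± 0.53 in the controls (SD, n = 3) and -4.01 ± 0.95 in the TAZ-CCl4 libraries (SD, n = 5; exact p = 0.0357, adjusted 0.0417 over the 7 ratios). The Hbegf ratio was 5.78 higher, Btc 3.39, Tgfa 2.90, Ereg 2.48 and Egf 1.78, each without overlap between groups and with the same smallest exact p of 0.0357 and adjusted value of 0.0417. The ratio of Erbb3 to Egfr was 0.79 higher, the groups overlapped and it did not pass (exact p = 0.0714, adjusted 0.0714). Since Egfr was among the lower genes, 82.4% of all tested genes had a higher ratio to Egfr without overlap (84.2% in either direction), so that 6 of 7 ratios did is near the background.

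**Figure D3:**
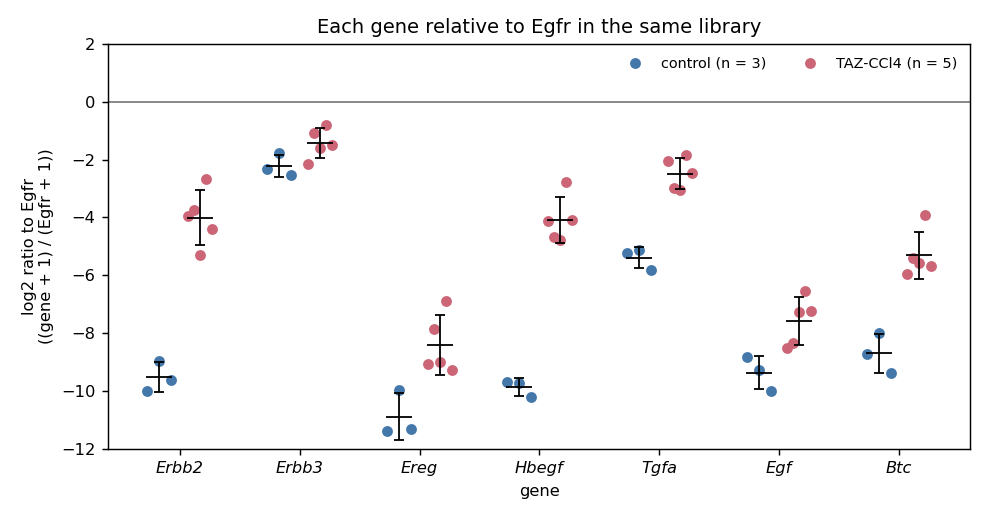
The log2 ratio of each tested member to Egfr in the same library, (gene + 1) / (Egfr + 1), with points for libraries and bars for mean ± SD. The TAZ-CCl4 points of Erbb2 and Hbegf lie between -5.28 and -2.67 and their control points between -10.2 and -8.95, while the Erbb3 points overlap.

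Levels of different genes were compared per kilobase of the longest annotated transcript, within a group. In the controls Egfr led with 1693 ± 400.2 normalised counts per kb (SD, n = 3), followed by Erbb3 with 607 ± 20.3 and Tgfa with 89.6 ± 12.6, with no overlap between neighbours. Btc followed at 10.1 ± 2.27, then Hbegf at 6.00 ± 1.10, Egf at 5.43 ± 2.18 and Erbb2 at 4.49 ± 1.08, of which Hbegf, Egf and Erbb2 overlapped with their neighbours. Ereg at 2.01, Areg at 0.662 and Epgn at 0.458 per kb closed the order, with overlap between Areg and Epgn. In the TAZ-CCl4 libraries Egfr at 411 ± 133 (SD, n = 5), Erbb3 at 252 ± 57.4 and Tgfa at 165 ± 61.9 kept the first 3 places, now with overlapping ranges. Hbegf at 83.4 ± 22.4, Erbb2 at 51.0 ± 15.0 and Btc at 25.2 ± 5.75 per kb came next, Hbegf overlapping Erbb2 and Erbb2 overlapping Btc. Egf, Ereg and Areg followed at 4.58, 2.74 and 1.76 per kb, Egf overlapping Ereg and Ereg overlapping Areg, and Epgn was last at 0.0829, below the range of Areg. The Egfr level depends on the length chosen: its longest transcript has 10208 bases and the median of its coding transcripts 2943. Per kb of the median coding transcript, Egfr stood at 5871 in the controls and 1426 in the TAZ-CCl4 libraries. Tgfa was then next to it at 302.6 in the TAZ-CCl4 libraries, with no overlap between Egfr and Tgfa, and overlapped Erbb3. In the controls Egf then came before Hbegf, and Btc overlapped Egf.

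The make-up of the family therefore shifted within libraries, whatever the scaling factor given to each library. Quantile normalisation is not such a factor, and ratios and shares were not recomputed under it. Its log2 fold changes were -0.96 for Egfr, -0.66 for Erbb3, -0.89 for Ereg and -1.38 for Egf. They were 2.64 for Erbb2, 2.92 for Hbegf, 0.88 for Tgfa and 0.36 for Btc. Erbb2 made up 0.140%, 0.264% and 0.194% of the summed receptor level per kb in the controls. It made up 8.65%, 7.67%, 3.23%, 13.9% and 5.64% in TAZ-CCl4 replicates 1 to 5, with no overlap. With median coding lengths these shares were smaller, at 0.0491% to 0.0999% in the controls and 1.28% to 6.69% in the TAZ-CCl4 libraries, and again did not overlap. Egfr made up 66.8% to 77.2% in the controls and 43.5% to 66.1% in the TAZ-CCl4 libraries, also without overlap, while the shares of Erbb3 overlapped. With median coding lengths Egfr made up 87.5% to 92.1% and 72.8% to 87.1%. Among ligands, Tgfa held the largest share in every library, 75.3% to 80.3% in the controls and 45.7% to 68.1% in the TAZ-CCl4 libraries. Hbegf made up 5.49%, 4.64% and 5.60% of the summed ligand level in the controls and 25.3%, 27.3%, 27.3%, 38.1% and 30.3% in TAZ-CCl4 replicates 1 to 5. The Hbegf shares were 3.31% to 3.94% and 18.7% to 30.5% with median coding lengths. The summed receptor level was 17.8, 17.6 and 25.8 times the summed ligand level in the controls and 1.90, 3.90, 3.42, 1.68 and 2.48 times in the TAZ-CCl4 libraries. With median coding lengths it was 27.4 to 43.4 times and 2.30 to 5.57 times. These sums were not tested.

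**Figure D4:**
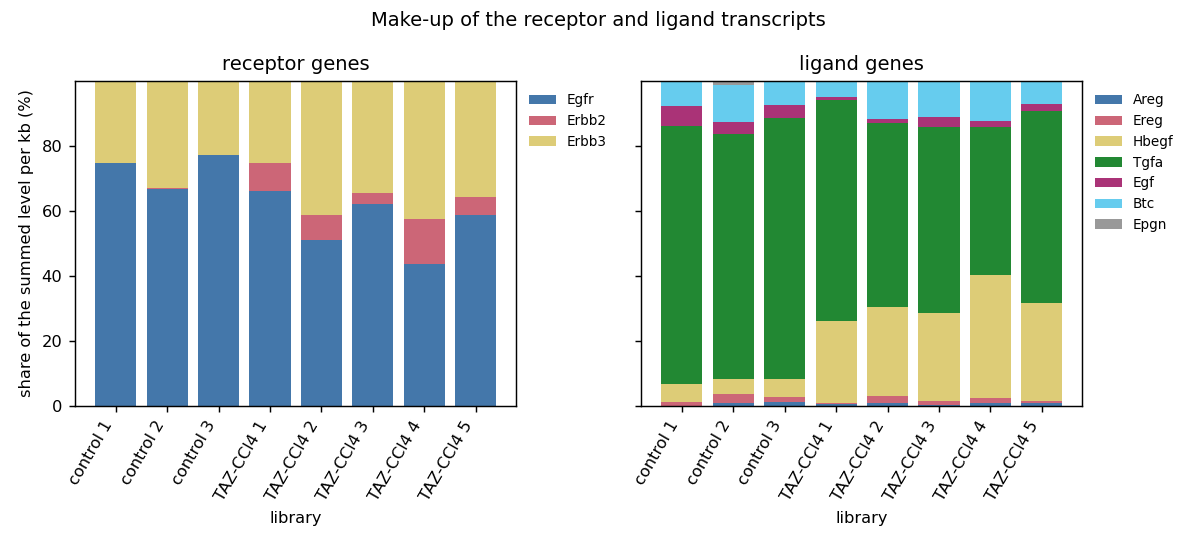
Share in percent of each receptor gene (left) and ligand gene (right) in the summed level per kb (longest transcript) of its class, 1 bar per library. Erbb2 is under 0.3% of the receptors in the controls and 3.23% to 13.9% in the TAZ-CCl4 libraries, and Hbegf goes from 4.64% to 5.60% of the ligands to 25.3% to 38.1%.

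Within the TAZ-CCl4 group, replicate 4 had the lowest Egfr, the highest Erbb2, Hbegf, Btc and Ereg, and the largest Erbb2 and Hbegf shares. Its estimated depth, 33.8 M reads, was above the 12.4 to 14.4 M of the other TAZ-CCl4 libraries. Replicate 3 had the highest Egfr and the lowest Erbb2. The libraries also differed in marker genes of other cell types. For the marker counts that follow, 32.4% of all tested genes were called higher and 29.8% lower as deposited. The shares were 76.3% and 6.39% at equal totals, and 27.8% and 29.8% after quantile normalisation. Of 8 cholangiocyte and progenitor markers, 8 were called higher as deposited and at equal totals and 7 after quantile normalisation, and their sum went from 2335 to 2928 in the controls to 35262 to 123719 in the TAZ-CCl4 libraries, with none at 0 and the highest sum in replicate 4. Of 8 macrophage markers, 5 were called higher, with sums of 1601 to 2818 and 8967 to 19204.5. The other 3, Clec4f, Cd5l and Marco, missed the threshold as deposited, at log2 differences of -2.35, -0.39 and 0.91. Of 8 stellate cell and myofibroblast markers, 5 were called higher, with sums of 1774 to 3063 and 5377 to 8119. Neutrophil markers summed to 61.8 to 69.9 and 401 to 748, with Ngp at 0 in the controls and 5 of 5 tested genes higher, but 3 after quantile normalisation. Markers of T and NK cells summed to 108 to 112 and 180.1 to 303, with 5 of 7 tested genes higher, but 1 after quantile normalisation. Of 8 endothelial markers, 3 were higher and 2 lower as deposited and 6 higher and 0 lower at equal totals, with sums of 1531 to 2865 and 1905 to 2982. Mesothelial markers summed to 55.4 to 136 and 28.1 to 114, with 0 of 4 tested genes higher and 1 lower as deposited, 1 higher and 1 lower at equal totals, and 2 lower after quantile normalisation. Markers of mast cells and basophils, a known source of Areg, summed to 1.84 to 10.6 and 4.75 to 48.2. Of these 6 genes 0 passed the filter on low values, so none was tested. Cpa3, Mcpt4, Mcpt8, Tpsb2 and Ms4a2 were at 0 in the controls and also in TAZ-CCl4 replicate 3. Mcpt8 was above 0 only in TAZ-CCl4 replicate 1, and Ms4a2 only in replicate 4. The part of these cell types in the changes of Erbb2, Hbegf, Egfr and the other members was not tested.

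Epgn, Ereg, Areg and Btc lie side by side on chromosome 5 within 375.5 kb, as the annotation gives them. Btc was called higher, Ereg was called at equal totals but not as deposited, and Areg and Epgn were near 0 in both groups. Differences in change between these genes were not tested. The coding genes on either side, named here for their position only, were Mthfd2l, at 63.9 ± 10.3 and 99.8 ± 44.1 and not called as deposited (limma, adjusted p = 0.161) but called higher at equal totals, at 1.78 (limma, adjusted p = 6.75e-04), and Parm1. Parm1 was called higher, at 3.03 ± 2.59 (SD, n = 3) against 192 ± 62.9 (SD, n = 5) and a log2 difference of 5.69 ± 0.45 (SE; limma, adjusted p = 3.36e-06).

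The genes most like each tested member by Pearson's r of log2(value + 1) over the 8 libraries, among tested genes with a mean of at least 50, were as follows. Egfr was nearest to Fam151b (r = 0.990) and Aptx (r = 0.989), and Erbb3 to Cyp2d41-ps (r = 0.999) and Cebpa (r = 0.998). Erbb2 was nearest to Myl12b and Anxa3 (r = 0.997 for both), and Hbegf to Prkx (r = 0.999) and B4galt6 (r = 0.998). Btc was nearest to Rasal3 and Ttc5 (r = 0.987 for both), and Tgfa to Nacc1 (r = 0.988) and Celf2 (r = 0.962). Ereg was nearest to Rhpn2 (r = 0.937) and Fbxo32 (r = 0.927), and Egf to Zc3hav1 (r = 0.933) and Pfdn1 (r = 0.927). For members whose groups lie well apart, these values mostly describe the difference between the groups. The groups of Ereg and Egf overlapped, so their values also reflect spread within groups. Control and TAZ-CCl4 means were 336 and 382 for Rhpn2, and 1045 and 985 for Zc3hav1. Each gene was picked for its high r over 8 libraries, and a link to the member was not tested.

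Genes that act with the family were taken from 5 lists. Of the fourth receptor and the neuregulins, Nrg1, whose product is a ligand of ERBB3 and ERBB4, was higher. It stood at 12.7, 11.0 and 13.4 in the controls, against 455, 253, 244, 379 and 489.9 in the TAZ-CCl4 libraries, without overlap (log2 fold change 4.72 ± 0.28; limma, adjusted p = 8.11e-07), and it was also called at equal totals and after quantile normalisation. Erbb4 stood at 84.7 ± 23.6 and 76.5 ± 49.5 and missed the threshold at -0.41 on the log2 scale, or 0.82 at equal totals. Nrg4, known as a neuregulin of adipose tissue and liver, stood at 97.0, 131 and 73.9 and at 47.4, 191, 48.2, 22.4 and 24.4 and missed the threshold (limma, adjusted p = 0.164). After quantile normalisation Nrg4 passed as lower, at -1.77 (limma, adjusted p = 0.0448). As deposited but without TAZ-CCl4 replicate 2 it also passed as lower, at -1.52 (limma, adjusted p = 0.00522). The TAZ-CCl4 mean was 66.7 with that library and 35.6 without it. Nrg2 was at 0 to 2.36 in the controls and 4.06 to 13.8 in the TAZ-CCl4 libraries, without overlap but below the filter. With no filter on low values it passed as higher, at 2.26 (limma, adjusted p = 0.00752). Nrg3 was listed at 0 in all libraries but TAZ-CCl4 replicate 5, at 1.09.

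Of the genes of ligand shedding and trafficking, 8 of 10 tested were called higher, 0 lower and 2 missed the threshold, where 32.4% of all tested genes were called higher. The list median was 1.42 (log2) against 0.03 for all tested genes. At equal totals 10 were higher, where 76.3% of all genes were, with a median of 2.67 against 1.26. The protease gene Adam8 stood at 7.78 ± 1.94 in the controls (SD, n = 3) and 122 ± 32.4 with TAZ and CCl4 (SD, n = 5), a log2 difference of 3.80 ± 0.30 (limma, adjusted p = 3.53e-06). Timp3, which encodes an inhibitor of ADAM17, stood at 281 ± 108 and 2996 ± 931, a log2 difference of 3.43 ± 0.27 (limma, adjusted p = 3.68e-06).

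Of 23 genes of the adaptors and the RAS-ERK and PI3K cascade, 8 were called higher, 6 lower and 9 missed the threshold, near the 62.3% called over all tested genes. The list median was 0.02 as deposited and 1.27 at equal totals, both next to the medians of all genes. After quantile normalisation it was 0.36 against -0.05 for all tested genes. Of the list, 11 genes were then called higher and 2 lower, where 27.8% and 29.8% of all tested genes were. The docking protein genes Gab2 and Gab1 had the largest changes. Gab2 stood at 19.6 ± 12.8 in the controls, 13.0 without control replicate 2, and 259 ± 37.1 in the TAZ-CCl4 libraries, a log2 difference of 3.86 ± 0.39 (limma, adjusted p = 1.52e-05). Gab1 stood at 179 ± 12.9 and 519 ± 58.3, with 1.53 ± 0.14 (limma, adjusted p = 8.69e-06). The 6 called lower were Sos1, Hras, Araf, Map2k2, Pik3r1 and Akt2, with log2 fold changes of -0.82 (Akt2) to -0.38 (Hras). At equal totals all 23 genes of the list were called higher, as were 76.3% of all tested genes. The 6 then stood at 0.43 (Akt2) to 0.87 (Hras), below the median of 1.26 over all tested genes. After quantile normalisation Sos1 and Pik3r1 stayed called lower, at -0.68 and -0.40, and Hras, Araf, Map2k2 and Akt2 were not called. As deposited, the call of Hras ended without any one library except TAZ-CCl4 replicate 1, at -0.41 to -0.30 (limma, adjusted p = 0.0501 to 0.118).

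Of 16 negative regulators, 8 were called higher, 5 lower and 3 did not pass, where 32.4% of all tested genes were higher and 29.8% lower. The list median was 0.58 against 0.03. The ERK phosphatase genes Dusp5 and Dusp4 were higher, at 12.1 ± 4.62 and 130 ± 36.3 for Dusp5 and 26.5 ± 13.5 and 163 ± 38.4 for Dusp4, with log2 fold changes of 3.33 ± 0.34 and 2.66 ± 0.32 (limma, adjusted p = 1.74e-05 and 5.31e-05). Errfi1, which encodes MIG6, an inhibitor that binds the EGFR kinase, stood at 25985, 24816 and 24787 in the controls and 10764, 9902, 5395, 4034 and 10461 in the TAZ-CCl4 libraries. Its groups did not overlap (log2 fold change -1.74 ± 0.32; limma, adjusted p = 9.07e-04), but it did not pass at equal totals, at -0.49, or after quantile normalisation, at -0.35. With totals set equal leaving out Mup and mitochondrial genes, Errfi1 passed as lower, at -0.91 (limma, adjusted p = 0.0206). Dusp6 was lower at -1.18 and stood at 0.07 at equal totals. Lrig1, Lrig3 and Socs4 were lower at -0.50, -0.77 and -0.38 as deposited and called higher at equal totals, at 0.75, 0.48 and 0.87. The calls of Lrig1 and Socs4 ended without control replicate 1, at -0.29 and -0.36 (limma, adjusted p = 0.146 and 0.0791), and without control replicate 3, at -0.54 and -0.36 (limma, adjusted p = 0.0529 and 0.0835). At equal totals 13 of the 16 were higher and 0 lower, where 76.3% and 6.39% of all genes were. After quantile normalisation 7 were higher and 4 lower, where 27.8% and 29.8% of all tested genes were. The list median was then 0.16 against -0.05. Dusp6, Lrig3 and Socs4 stayed called lower, at -0.81, -1.05 and -0.37, and Lrig1 was not called, at -0.39. Spry4, not called as deposited, was called lower, at -0.96 (limma, adjusted p = 0.0433).

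Of 15 genes that report ERK output, 9 were called higher, 4 lower and 2 missed the threshold, where 32.4% and 29.8% of all tested genes were higher and lower. The list median was 1.21 as deposited against 0.03 for all genes, and 0.29 against -0.05 after quantile normalisation, with 7 higher and 4 lower. The list shares Dusp4, Dusp6, Spry2 and Spry4 with the negative regulators. Ier3 stood at 13.0 ± 4.85 and 495 ± 211, a log2 difference of 5.10 ± 0.38 (limma, adjusted p = 2.68e-06). The ephrin receptor gene Epha4 stood at 9.55 ± 7.01, 5.74 without control replicate 3, and 94.4 ± 35.0, with 3.31 ± 0.50 (limma, adjusted p = 2.35e-04). The immediate early genes Fos and Egr1 were lower, at -1.66 ± 0.40 and -1.91 ± 0.58, as was Phlda1 at -2.22 ± 0.55, and none of the 3 passed at equal totals, at -0.41, -0.65 and -0.97. Egr1 also lost its call without control replicate 3, at -1.78 (limma, adjusted p = 0.0578). After quantile normalisation Fos and Phlda1 stayed called lower, at -1.41 and -1.90, and Egr1 was not called, at -1.12. At equal totals 10 of the 15 were higher and 0 lower, a smaller share than the 76.3% of all genes that were higher.

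**Figure D5:**
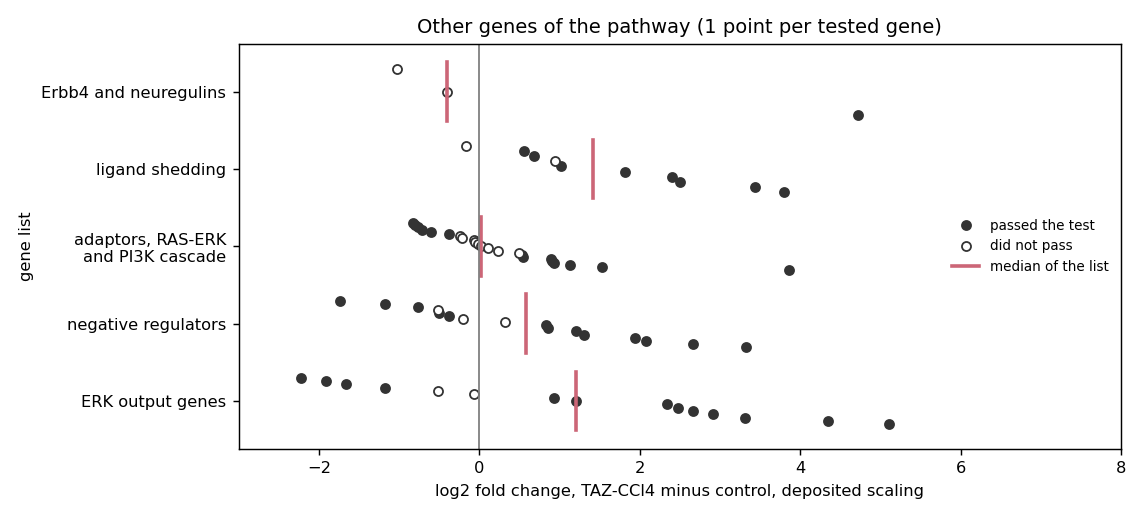
The log2 difference of each tested gene of the 5 pathway lists at the deposited scaling, TAZ-CCl4 minus control, filled where the gene passed the test, with the list median as a line. Nrg1 stands apart at 4.72 among the neuregulins, the shedding list has a median of 1.42, and the cascade list is centred at 0.02. The 6 cascade genes shown as lower were called higher at equal totals, as were all 23 tested cascade genes and 76.3% of all tested genes.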

How the data were processed

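Poly-A RNA of mouse liver was measured in 8 libraries, 3 control and 5 TAZ-CCl4. The deposited signal is a normalised count per gene: the authors' deposited table carries kallisto and DESeq2 in its name, and DESeq2 and the mm10 build also appear in the submitters' processing notes. Versions, transcript annotation and filters are nowhere stated in the sources read. The most frequent low value, taken as 1 read, gives a depth of about 12.4 to 33.8 M reads per library; of the values under 10, 47.3% to 66.8% were whole multiples of it to within 0.03, so no count model was run. No 2 libraries of the same group matched within counting noise.

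Values were analysed as log2(value + 1) with limma 3.58.1 (R 4.3.3), with a prior variance trend, over all 14171 genes with a mean of at least 10, and adjusted by Benjamini-Hochberg. Exact permutation tests used scipy 1.17.1. Positions and transcript lengths came from GENCODE M21 and promoter windows from RefSeq on GRCm38.p6. The fit was tested on simulated data. Alternatives covered pseudocounts, filters, scalings, the variance model, a replicate block and leaving out each library.

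The members and lists were chosen with earlier results of these data known, and 1 list gene is not reported here. Named genes are all members, Erbb4 and Nrg1 to Nrg4, and from each list the 2 called genes with the largest change and a higher group mean of at least 50, plus called genes opposite to most of their list.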

Additional observations from a re-analysis of the deposited data

Results flagged for a closer look

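Of 79 sets of 5 TAZ-CCl4 values checked, for the members, the pathway genes and the ratios to Egfr, 4 held a library far from the other 4 by Dixon's test, about what 1 in 20 gives by chance. Nrg4 was high in TAZ-CCl4 replicate 2, at 190.8 normalised counts. Rhbdf2, which encodes a trafficking factor of ADAM17, was high in replicate 1, at 1062. Myc was also high in replicate 1, at 1615.0. The log2 ratio of Btc to Egfr was high in replicate 4, at -3.91.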

How the results depend on the processing

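Of 150 recomputed member fold changes, 141 kept their direction and side of the threshold. Those that did not were Erbb3 at equal totals, Btc after quantile normalisation and Tgfa without control replicate 2 or 3, which lost their calls, Ereg at equal totals and Egf after quantile normalisation, which gained one, and 3 reversals. Egf reversed at equal totals (0.88) and with totals set equal leaving out Mup and mitochondrial genes (0.48), and Ereg after quantile normalisation (-0.89). Setting totals equal leaving out Mup and mitochondrial genes is called the reduced-total scaling below. Members called lower numbered 2 as deposited and 1 at equal totals.

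All genes called higher and lower numbered 4592 and 4230 as deposited, 10810 and 906 at equal totals, and 8914 and 1512 under the reduced-total scaling. Pathway genes called higher and lower numbered 32 and 14 as deposited, 55 and 0 at equal totals, and 48 and 2 under the reduced-total scaling, with 9 lower after quantile normalisation. Named pathway genes that reversed at equal totals were Akt2 (0.43), Araf (0.65), Dusp6 (0.070), Erbb4 (0.82), Hras (0.87), Lrig1 (0.75), Lrig3 (0.48), Map2k2 (0.49), Nrg4 (0.21), Pik3r1 (0.54), Socs4 (0.87) and Sos1 (0.45). Under the reduced-total scaling the values were 0.0091, 0.23, 0.41, 0.45, 0.33, 0.058, 0.072, 0.12, 0.45 and 0.035 for Akt2, Araf, Erbb4, Hras, Lrig1, Lrig3, Map2k2, Pik3r1, Socs4 and Sos1.

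Leaving out 1 library gave 3 to 4 members higher and 2 lower, 4015 to 4586 genes higher and 3600 to 4269 lower, and 27 to 35 pathway genes higher and 10 to 14 lower. The exact test of the ratios to Egfr, with 6 called on all libraries, then calls 0 to 0, because its smallest p becomes 0.0571 or 0.0952.

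The replicate numbers do not pair the samples: the deviations of same-numbered libraries correlated at -0.067, -0.064 and -0.088. With a replicate block the members called were 4 higher and 2 lower, and all genes 3801 and 3479. Hras, Lrig1, Lrig3 and Socs4 were not called under the block. Depth limits Areg, Epgn and Nrg3, which rest on a few reads, and Ereg, with about 3.0 to 10.0 reads in the controls. It also limits Nrg2, at 0 to 2.36 normalised counts in the controls. The cause of these differences was not tested.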
